A study of Mus musculus with 2 samples.

Results

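Type 2 cytokines and the receptors that read them were followed across the cell types of psoriasiform mouse skin. The set held 8 genes of the 31053 genes in the count tables: the cytokine genes *Il4*, *Il13* and *Il5*, and the receptor genes *Il4ra*, *Il13ra1*, *Il13ra2*, *Il3ra* and *Crlf2*. They were chosen by symbol, and all 8 were found in both libraries. The data were 1 dermal and 1 epidermal single-cell RNA library from wild-type C57BL/6 mice given imiquimod (IMQ) cream, a Toll-like receptor agonist that produces psoriasis-like inflammation. Per the labels the mice were 10 weeks of age, the cream went on the ear on 5 consecutive days and live cells of each layer were sorted. The study's methods give a younger age, name doses of cream for back and ear, do not say which skin these libraries came from, and state that dermal cells were also sorted for the leukocyte surface protein CD45. The number of animals pooled in a library is not stated in the sources used here, and no untreated library was analysed here.

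Each tissue had 1 library, so no difference between the tissues or between cell types had a replicate, no test was made, and library and tissue cannot be told apart. Levels are given as counts per 1000000 (CPM): the unique molecular identifiers (UMIs, which tag single captured RNA molecules) of a gene summed over the cells of a type, for each 1000000 UMIs of those cells. The 95% intervals in parentheses are exact and reflect the number of UMIs or cells counted, nothing else. They treat every UMI as independent, although several UMIs of a gene can come from 1 cell. After cells with fewer than 200 genes or with more than 10% mitochondrial UMIs were left out, 4747 dermal cells (median 7010 UMIs) and 4173 epidermal cells (median 25918 UMIs) remained, and 30 cell barcodes occurred in both libraries. Cell types were gated on marker genes, none of which was among the 8 genes. Fibroblast-like cells made up 7.71% of the kept dermal cells, although the methods describe a CD45+ sort.

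Interleukin 4 and interleukin 13 (IL-4 and IL-13) are the signature cytokines of allergic and anti-worm immunity, made in skin by basophils, mast cells, group 2 innate lymphoid cells and T helper cells, and they act through receptors that share the IL-4Rα chain, the product of *Il4ra*. Paired with the common γ chain this forms the type I receptor, which binds IL-4, and paired with the product of *Il13ra1* it forms the type II receptor, which binds either cytokine and passes the signal to STAT6. The product of *Il13ra2* binds IL-13 tightly and is known mainly as a decoy, IL-5 is the growth factor of eosinophils, *Il3ra* encodes the IL-3-binding chain that supports basophils, and *Crlf2* encodes the receptor chain for the epithelial alarmin TSLP.

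The 3 cytokine genes lay together on chromosome 11 (GRCm38, GENCODE M21). *Il4* (ENSMUSG00000000869) spanned chr11:53602982-53618669 on the minus strand and *Il13* (ENSMUSG00000020383) spanned chr11:53631324-53634702 on the same strand, with 12655 bases between them. *Il5* (ENSMUSG00000036117) spanned chr11:53720794-53725106 on the plus strand, 86092 bases beyond *Il13*, with the DNA repair gene *Rad50* in the gap. The receptor genes were scattered: *Il4ra* at chr7:125552120-125579474, *Il13ra1* at chrX:36112110-36171259, *Il13ra2* at chrX:147383476-147429192, *Il3ra* at chr14:14346275-14356011 and *Crlf2* at chr5:109554709-109558993.

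Promoter windows from RefSeq (GRCm38.p6, 250 bases before to 50 after each start site) were matched for all 8 genes and searched on both strands for GATAA, the core read by GATA factors, for TTCNNNNGAA and TTCNNNGAA, the palindromes read by STAT6 and other STAT factors, and for GGAAA, the core of NFAT sites. The windows below are shown because they carried such letters before the start sites of *Il4* and *Il13*, the cytokine genes with most of the UMIs. The capitals mark the matched motif.
Il4, chr11:53618813-53618842, minus strand, 167 bases before the start site: ttggtctgatTTCACAGGAAaatttacctg
Il13, chr11:53634765-53634794, minus strand, 80 bases before the start site: atgtggttttcaGATAAtgcccaacaaagc
Over 32851 mouse promoter windows of 300 bases, TTCNNNNGAA occurred in 6.95%, TTCNNNGAA in 8.30% and GATAA in 25.4%. *Il4* also held a GATAA 15 bases after its start site, and *Il13ra2* held one on the other strand 15 bases before its start site. GGAAA was present 5 times in the *Il4* window, where 1 copy overlapped the palindrome shown, and 4 times in the *Il13* window. Windows with at least 4 copies made up 2.65% of all windows and those with at least 5 made up 0.728%, while 61.3% held at least 1. A second *Il4* window, at an internal start site in RefSeq, held TTCNNNGAA 4 bases before that start. The windows of *Il5*, *Il4ra*, *Il13ra1*, *Il3ra* and *Crlf2* held neither GATAA nor either palindrome. These matches describe letters and not bound sites.

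*Il4* was a basophil transcript in this skin. Of 607 dermal *Il4* UMIs, 486 lay in the 264 basophil-like cells, which is 80.1% (76.7-83.2) of the UMIs in 5.56% of the cells. Mast-cell-like cells held a further 62 UMIs, or 10.2% (7.92-12.9), in 139 cells. In the epidermis 25 of 29 *Il4* UMIs (86.2%) lay in 21 basophil-like cells, and no mast-cell-like cell was found there.

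**Figure D1:**
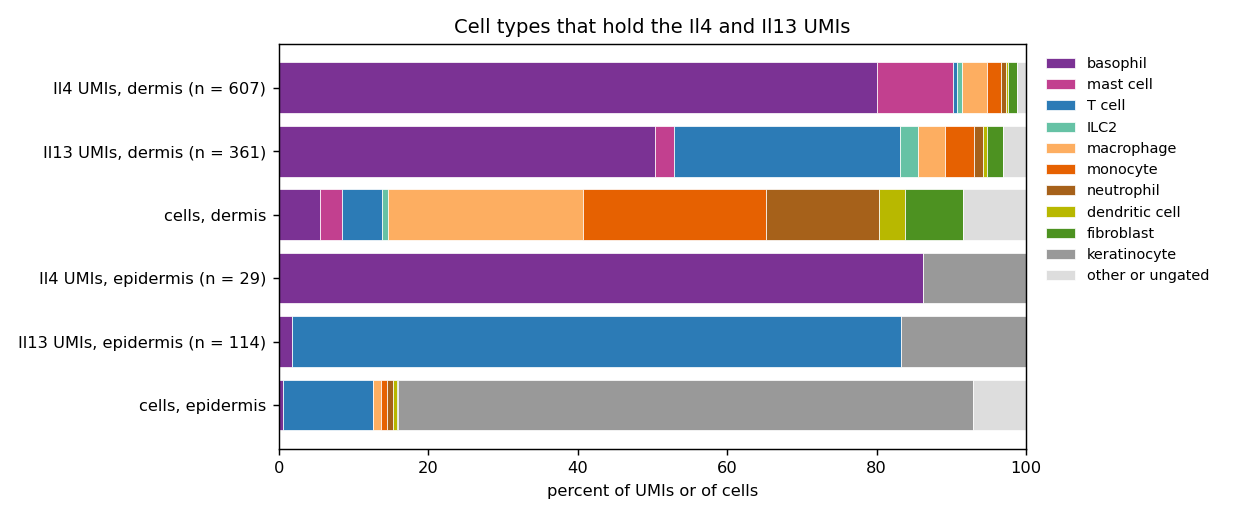
Stacked bars of the share of *Il4* and of *Il13* UMIs that fell in each gated cell type of a library, with the share of all kept cells that each type made up below them, in percent of UMIs or of cells. Dermal *Il4* was 80.1% basophil, dermal *Il13* was split between basophil-like (50.4%) and T-cell-like (30.2%) cells, and epidermal *Il13* was 81.6% T cell, while basophil-like cells were 5.56% of the dermal cells.

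The names of these cells rested on the markers used to gate them, so high detection inside a gate is no check on its name. In the dermal basophil gate *Mcpt8*, a basophil protease, was detected in 94.7% of cells at 7597 CPM against 28.0 CPM in the other dermal cells, *Gata2* in 92.0% and *Cd200r3* in 81.4%, while *Prss34* was seen in 22.7%. In the T-cell gate *Cd3g* was detected in 96.8% of dermal and 98.4% of epidermal cells. In the mast gate the chymase gene *Cma1* was detected in 99.3% of cells and *Mcpt4* in 98.6%, although these cells were shallow, with a median of 888 UMIs against 4363 in basophil-like cells. The receptor tyrosine kinase gene *Kit* was detected in 28.8% of them. In the dermal cells outside each gate the shares were 19.9% for *Mcpt8*, 4.42% for *Gata2* and 2.92% for *Cd200r3*. They were 31.1% for *Cma1*, 18.4% for *Mcpt4* and 6.45% for *Cd3g*. In the epidermis *Cd3g* was detected in 23.1% of the cells outside the T-cell gate. The dendritic gate asked for only 2 markers. Of its 168 dermal cells, 106 had just that minimum and 38 fell in the cluster named dendritic, so its name is uncertain.

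*Il4* stood at 376 CPM (343-411) in dermal basophil-like cells and at 391 CPM (253-578) in epidermal ones, a dermal over epidermal ratio of 0.961 (0.643-1.50). Of the 25 epidermal UMIs, 11 lay in 1 cell and 88.0% in the 5 richest of 21 cells. Tissue ratios were planned for types with at least 50 cells in both libraries, so this one lies outside that plan. A UMI of *Il4* was found in 144 of 264 dermal basophil-like cells (54.5%, 48.3-60.7) and in 8 of 21 epidermal ones (38.1%). By contrast, in neutrophil-like cells, not a known main source of IL-4, which had a median of 3871 UMIs, the share was 0.561%. The level was spread unevenly over the basophil-like cells: 120 had no *Il4* UMI, 77 had 1, 44 had between 2 and 4, and 23 had at least 5, with a maximum of 61 in 1 cell. The 5 richest cells of the dermal library held 25.2% of its *Il4* UMIs. Thinned to 1000 UMIs a cell, 24.0% of the dermal basophil-like cells kept an *Il4* UMI.

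**Figure D2:**
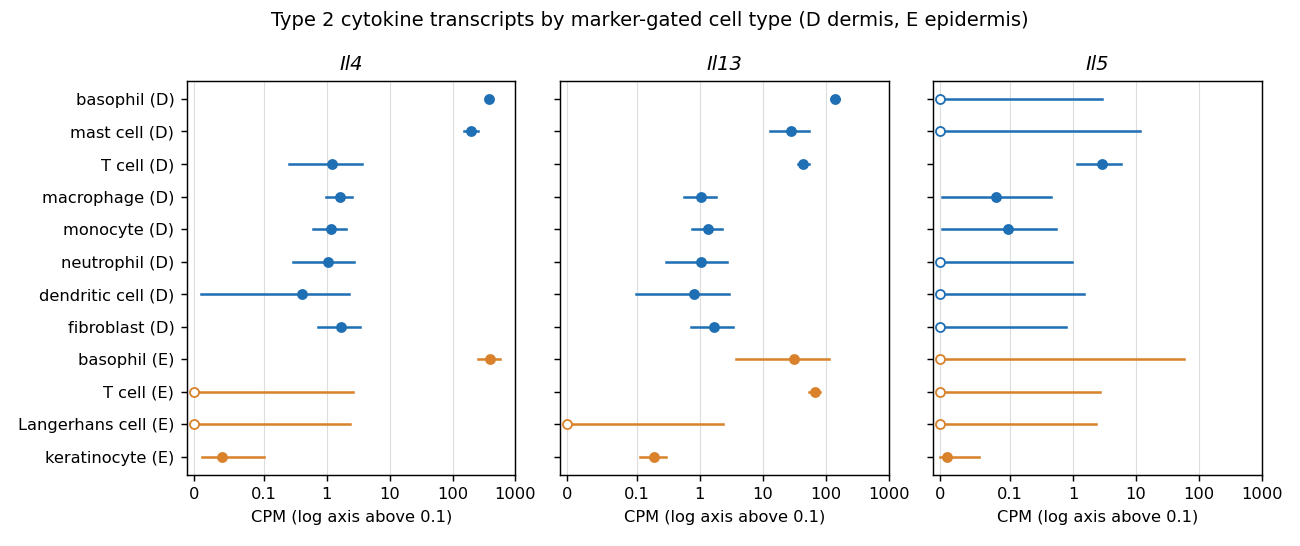
Level of *Il4*, *Il13* and *Il5* in each gated cell type of the dermis (D, blue) and epidermis (E, orange), in CPM on an axis that is logarithmic above 0.1 and linear below. Points are sums over the cells of a type, lines are exact 95% Poisson intervals and open points mark types with 0 UMIs. The basophil-like cells of both tissues stood at 376 and 391 CPM of *Il4*, and mast-cell-like cells at 197 CPM (365 CPM in those inside the mast cluster). The basophil levels were over 100-fold above the T-cell-like, macrophage-like, monocyte-like, neutrophil-like and dendritic-like cells, and *Il5* stayed low throughout.

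Mast-cell-like cells were the other source of *Il4*. Their level was 197 CPM (151-253), and 43 of 139 cells (30.9%) carried a UMI, with at most 5 in a cell. Basophil-like cells exceeded the whole mast gate by a ratio of 1.91 (1.46-2.53) in summed counts. That order depended on how the cells were weighed and typed. As a mean of single-cell CPM the mast level was 403 CPM and the ratio 0.951. With cell types taken from clusters they were 364 CPM and 1.09. At 1000 UMIs a cell the shares with *Il4* were 24.0% in basophil-like and 22.4% in mast-cell-like cells, and 81 of the 139 mast-cell-like cells were too shallow to enter. The mast gate was mixed in depth and in mast marker level. Of its cells, 127 (median 875 UMIs) also fell in the mast cluster. The other 12 (median 13205 UMIs) held 47.8% of the UMIs of the gate. They fell in clusters named macrophage, monocyte and neutrophil and in an unnamed cluster led by *Cd209a*. The 127 cells had 365 CPM of *Il4* (60 UMIs) and the 12 had 2 UMIs, with mast markers summing to 95221 and 1224 CPM.

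Reads of each of these types were also found in the other. The 8 basophil markers summed to 3167 CPM in mast-cell-like cells against 16411 CPM in basophil-like cells, and all 8 were detected, although *Gata2*, *Hdc*, *Fcer1a* and *Ms4a2* are also expressed by mast cells. Among mast-cell-like cells, 121 (median 855 UMIs) lacked a *Mcpt8* UMI, and these held 48 *Il4* UMIs at 229 CPM (169-303). The 18 with *Mcpt8* (median 2229.5 UMIs) stood at 134 CPM. At such depth the lack of a *Mcpt8* UMI says little, and the part of basophil reads in the mast *Il4* was not tested. There were 2.38 *Il4* UMIs for each *Mcpt8* UMI in mast-cell-like cells and 0.0495 in basophil-like cells. In the other direction, the 8 mast markers summed to 468 CPM in basophil-like cells against 50303 CPM in mast-cell-like cells, with *Kit* and *Mrgprb1* at 0. Basophil-like cells without a *Cma1* UMI (203 cells) had 318 CPM of *Il4* and those with one (61 cells) had 542 CPM.

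T-cell-like cells did not stand out for *Il4*. In the dermis 3 UMIs were found in 251 cells (1.22 CPM, 0.252-3.57), and in the epidermis 0 of 507 cells had a UMI, which allows a share of up to 0.592% of cells with a UMI at this depth. Such limits concern cells with a UMI, not cells that express the gene. Dermal macrophage-like cells had 1.60 CPM, fibroblast-like cells 1.70, monocyte-like cells 1.16 and neutrophil-like cells 1.05, and these neighbours in the order did not differ beyond their intervals. The basophil level was 308 times (105-1499) that of dermal T-cell-like cells and 235 times (150-388) that of macrophage-like cells. The 39 ILC2-like cells, a small gate described after its values were seen, had 4 UMIs (21.5 CPM, 5.86-55.1). The name of this gate is uncertain. It rested on *Gata3* (94.9% of cells), *Il7r* (94.9%) and *Rora* (87.2%), while each other marker was seen in at most 23.1%. Of the 39 cells, 27 had only the minimum of 3 markers. They also held 218 UMIs of *Il22* and 118 of *Il17f*.

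*Il13* had more than 1 source. In the dermis 182 of 361 UMIs lay in basophil-like cells (50.4%, 45.1-55.7) and 109 in T-cell-like cells (30.2%, 25.5-35.2). In the epidermis 93 of 114 UMIs lay in T-cell-like cells (81.6%, 73.2-88.2) and 2 in basophil-like cells. The transcript was concentrated in few cells, with 58.4% of the dermal UMIs in the 5 richest cells. The plot of *Il13* against *Il4* in single cells shows these few cells at the top of each panel.

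**Figure D3:**
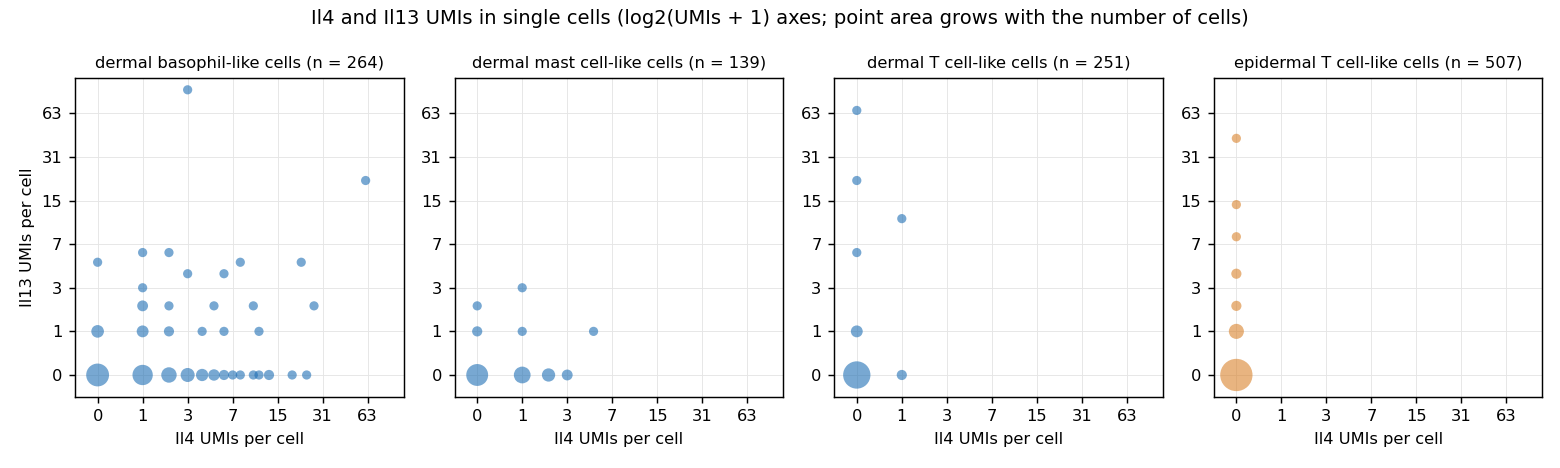
*Il13* UMIs against *Il4* UMIs in single cells of 4 gated types, on log2(UMIs + 1) axes that are labelled in UMIs, with point area growing with the number of cells at that pair of counts. *Il13* reached 92 UMIs in a dermal basophil-like cell with 3 UMIs of *Il4*, 66 in a dermal T-cell-like cell and 42 in an epidermal T-cell-like cell, and in the T-cell panels nearly all points lie at 0 *Il4* UMIs.

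Basophil-like cells of the dermis had 141 CPM (121-163) of *Il13*, and 34 of 264 cells (12.9%) carried a UMI, against 0.561% of neutrophil-like cells. A single cell of 6051 UMIs carried 92 of the 182, and the 5 richest held 71.4%. Without that cell the level was 70.0 CPM and the basophil share of dermal *Il13* was 33.5%, with a T-cell share of 40.5%. Dermal mast-cell-like cells had 9 UMIs (28.6 CPM, 13.1-54.3), and the basophil level was 4.92 times theirs (2.54-10.9). That ratio was 2.73 with cell types taken from clusters, where the mast level was 54.5 CPM, 2.45 without the richest basophil-like cell and 1.74 as a mean of single-cell CPM. The ILC2-like cells also had 9 UMIs (48.4 CPM, 22.1-91.9).

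The 2 cytokines were found in overlapping basophils. Both were detected in 26 dermal basophil-like cells, *Il4* without *Il13* in 118, *Il13* without *Il4* in 8 and neither in 112. Cells with both made up 9.85%, where the product of the separate shares is 7.02%, and deeper cells are more likely to show either. Of the 182 *Il13* UMIs, 170 lay in cells that also had *Il4*. *Il6*, a broad inflammatory cytokine, reached 3040 UMIs in basophil-like cells and shared cells with *Il4* in 116 cases. That was 43.9% of these cells, close to the 42.4% that the product of the separate shares gives. In the mast gate 3 cells had both genes, 40 *Il4* alone and 3 *Il13* alone.

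Dermal T-cell-like cells had 44.4 CPM (36.4-53.5) of *Il13*, but only 9 of 251 cells (3.59%) carried it and the 5 richest held 96.3% of the UMIs. The richest cell, of 22132 UMIs, held 66. Without it the level was 17.7 CPM. With the highest doublet scores removed it was 48.5 CPM. Epidermal T-cell-like cells had 66.6 CPM (53.8-81.6), with 24 of 507 cells (4.73%) positive, and 36.8 CPM without their richest cell. The dermal over epidermal ratio was 0.666 (upper bound 0.888), but it became 0.265 without the richest dermal cell and 1.21 without the richest epidermal cell, so its direction rested on 1 cell.

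The *Il13* of epidermal T cells was counted by subset. *Trdc*+ cells, which transcribe the constant gene of the δ receptor chain, made up 476 of 507 epidermal T-cell-like cells but had 24 of the 93 *Il13* UMIs (19.6 CPM, 12.5-29.1). This subset asked for only 1 *Trdc* UMI, and *Trdc* was also seen in 16.6% of epidermal cells outside the T-cell gate. Of the 24 UMIs, 8 lay in 1 cell with 5 UMIs of *Trac* and 1 of *Trdc*. By clusters, 473 cells led by *Cd7*, *Cd3g* and *Trdc* held 14 *Il13* UMIs. Another 52 cells led by *Il22*, *Il17f* and *Il17a* held 79. The 28 epidermal T-cell-like cells that were neither *Trdc*+ nor regulatory had 69 UMIs in 7 cells (428 CPM, 333-542), of which 42 were in 1 cell. Without that cell they had 27 UMIs at 179 CPM (118-261), beside the 24 of the *Trdc*+ cells. In the dermis the corresponding 68 cells had 68 UMIs (98.2 CPM), of which 66 were in 1 cell. The 86 dermal *Trdc*+ cells had 39 UMIs (39.3 CPM, 28.0-53.8) and the 97 regulatory T-cell-like cells had 2. The regulatory gate asked for at least 2 of *Foxp3*, *Ctla4*, *Ikzf2* and *Tnfrsf4*. It was applied before *Trdc*, so its cells could lack *Foxp3* or hold *Trdc*. Of the dermal ones 30.9% had *Il22* and 22.7% had *Il17f*.

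Cytokines of the type 17 response were looked up in the T cells with *Il13* after the values were seen, and the tissues and subsets differed in what they held. In the epidermis 10 of 24 T-cell-like cells with *Il13* had *Il22* and 10 had *Il17f*, against 21 and 25 of the 483 cells without *Il13*. These were 7 of 7 cells that were neither *Trdc*+ nor regulatory and 3 of 17 *Trdc*+ cells for either gene. Pooled, the 24 cells had 6532 CPM of *Il22* against 717 CPM in the rest, and 3670 against 580 CPM of *Il17f*. That contrast mixed subsets. Of the 21 cells without *Il13* that were neither *Trdc*+ nor regulatory, 10 had *Il22* and 9 had *Il17f*. In that subset *Il22* was 14257 against 4725 CPM and *Il17f* 7029 against 2504 CPM. In *Trdc*+ cells *Il22* ran the other way, with 208 against 357 CPM, and *Il17f* was 920 against 408 CPM. Of the 62 *Il17f* UMIs behind the 920 CPM, 50 lay in 1 cell, so that level rested mostly on it. This cell had 5 UMIs of *Trac* and 1 of *Trdc*. The cell with 42 UMIs of *Il13* carried 162 of *Il22*, 139 of *Il17f* and 127 of *Il17a*. It had 2 of *Cd3e* and 0 of *Trac* and *Trdc*, so its lymphocyte type is uncertain.

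In the dermis 8 of 9 T-cell-like cells with *Il13* had *Il22* and 7 had *Il17f*, but *Il22* was found in 49.8% and *Il17f* in 48.6% of all dermal T-cell-like cells, and *Il22* in 11.4% of basophil-like cells. The level of *Il22* was 5535 CPM in the cells with *Il13* and 3314 CPM in those without. The subset with most of the *Il13*, the 3 positive cells that were neither *Trdc*+ nor regulatory (68 of 109 UMIs), ran the other way, with 2414 against 6657 CPM of *Il22*, 181 against 3459 CPM of *Il17f*, and no *Il17a* UMI against 1100 CPM. *Gata3*, the master factor of type 2 T cells, stood at 181 CPM in them (9 UMIs) against 60.7 CPM. In dermal *Trdc*+ cells *Gata3* was 72.1 against 55.4 CPM. Regulatory T-cell-like cells ran the other way, with 29.8 (1 UMI) against 119 CPM. By clusters, 109 dermal *Il13* UMIs lay in the cluster led by *Il17f*, *Il22* and *Il17a*. The richest dermal cell, with 66 UMIs of *Il13*, had 23 of *Il22*, 1 of *Il17f*, 0 of *Il17a* and 6 of *Gata3*. It also had 1 of *Il5*, 5 of *Cd3e* and 0 of *Trac* and *Trdc*, so its lymphocyte type is uncertain. The dermal cells with *Il13* were also deeper, with a median of 22132 UMIs against 7498, and the part of depth in these shared detections was not tested.

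*Il5* was close to the limit of detection. The dermal library had 11 UMIs in 11 cells, of which 7 were T-cell-like (2.85 CPM, 1.15-5.87), 2 ILC2-like, 1 macrophage-like and 1 monocyte-like. None of 264 basophil-like cells had a UMI, which allows a share of up to 1.14% of cells with a UMI and a level of up to 2.32 CPM (3 counts). The epidermis held 1 UMI, in a keratinocyte-like cell. Eosinophils are the usual target of IL-5, and no cell was assigned to that type in either library. A cell with enough eosinophil markers could still be assigned to a type on which it scored higher.

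Seen against the rest of the dermal cells, basophil-like cells had high *Il4* and *Il13* transcript levels. Their receptor profile was shared in part by mast-cell-like cells. Among the genes with at least 20 UMIs in the dermis, which included 7 of the 8 genes and left out *Il5*, 4 were at least 2-fold higher in basophil-like cells: *Il4* (log2 ratio 6.92), *Il13* (4.94), *Il3ra* (2.07) and *Crlf2* (1.36). Across all 13295 genes compared, 9.94% passed 2-fold upward. *Il4ra* (-1.59) and *Il13ra1* (-3.20) were at least 2-fold lower, where 32.1% of all genes were. *Il13ra2* had 0 UMIs in basophil-like cells and 1.20 CPM in the rest, below the 2.32 CPM that 3 counts would give, so no fold is given, although genes with 0 UMIs count as lower in the background and in the list counts once 0.5 UMI is added. In mast-cell-like cells *Il4* (3.87), *Il13* (1.78) and *Il3ra* (1.09) were higher against a background of 19.8%, and *Il13ra1* (-1.65) was lower against 13.5%. Those values are for the whole mast gate. Its cells inside the mast cluster had 365 CPM of *Il4*, 54.8 of *Il13* and 91.3 of *Il3ra*, against 13.6, 8.78 and 24.7 outside the gate. All 4 *Il13ra1* UMIs of the gate lay outside the mast cluster. The cells inside it had 0, which allows up to 18.3 CPM, against 45.0 CPM outside the gate. In T-cell-like cells *Il13* (2.74) was the only one of the 7 to pass upward, against 13.2% of all genes, and *Il4* (-3.48) and *Il13ra1* (-2.65) were lower, against 24.6%, with *Il13ra2* at 0 UMIs.

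**Figure D4:**
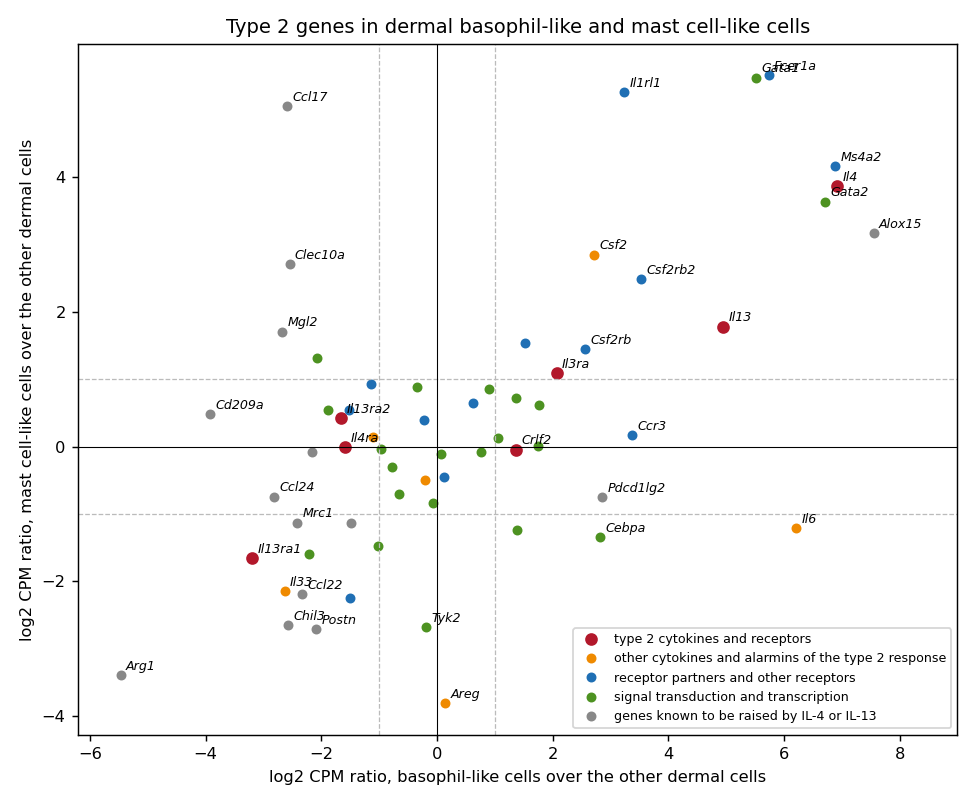
Log2 ratio of CPM over the other dermal cells in mast-cell-like (vertical) against basophil-like cells (horizontal), for the 7 cytokine and receptor genes and the genes of 4 pathway lists with at least 20 UMIs; dashed lines mark 2-fold. Genes with 0 UMIs in a type, such as *Il13ra2* in both and *Arg1*, are placed by the 0.5 UMI added to each count and not by a measured level. *Il4* lies at the upper right, at 6.92 and 3.87, and *Ccl17* at the upper left, where 432 of the 435 UMIs of the mast gate came from 1 cell outside the mast cluster.

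The receptors for IL-3 and TSLP were highest in basophil-like cells, except that the order of basophil- and mast-cell-like cells for *Il3ra* depended on weighing and typing. *Il3ra* reached 94.4 CPM (78.4-113) in dermal basophil-like cells, 62.6 CPM (17.1-160) in epidermal ones and 50.9 CPM (29.1-82.6) in mast-cell-like cells, where the basophil over mast ratio was 1.86 (1.10-3.35). With types from clusters the mast level was 90.9 CPM and the ratio 1.07, and as a mean of single-cell CPM they were 111 CPM and 0.924. Fibroblast-like (26.6 CPM), macrophage-like (24.5 CPM) and monocyte-like (23.4 CPM) cells followed. Neutrophil-like cells had 7.90 CPM, and keratinocyte-like cells had 2.96 CPM. The signalling partner of the chain, *Csf2rb*, was detected together with *Il3ra* in 29.2% of basophil-like cells, where the product of the separate shares is 28.7%.

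*Crlf2* was the most widely detected of the receptor genes among leukocytes. Epidermal basophil-like cells had 438 CPM (291-634) and dermal ones 292 CPM (263-323), with a UMI in 67.0% of the dermal cells. Dermal basophil-like cells exceeded neutrophil-like cells (154 CPM), the next dermal type, 1.89-fold. Dendritic-like cells had 148 CPM, dermal T-cell-like cells 138, monocyte-like cells 133, Langerhans-like cells 129, mast-cell-like cells 114 (85.3 in those of the mast cluster) and macrophage-like cells 96.4. T-cell-like cells of both tissues were alike within their intervals, with a dermal over epidermal ratio of 1.08 (0.898-1.30). Within the dermal T cells the regulatory subset had 192 CPM and the *Trdc*+ subset 110 CPM, a ratio of 0.573 (0.443-0.739) for *Trdc*+ over regulatory. Fibroblast-like cells had 51.3 CPM and keratinocyte-like cells, the known source of TSLP, had 16.2 CPM. The partner chain gene *Il7r* shared cells with *Crlf2* in 33.9% of dermal T-cell-like and 17.4% of basophil-like cells.

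**Figure D5:**
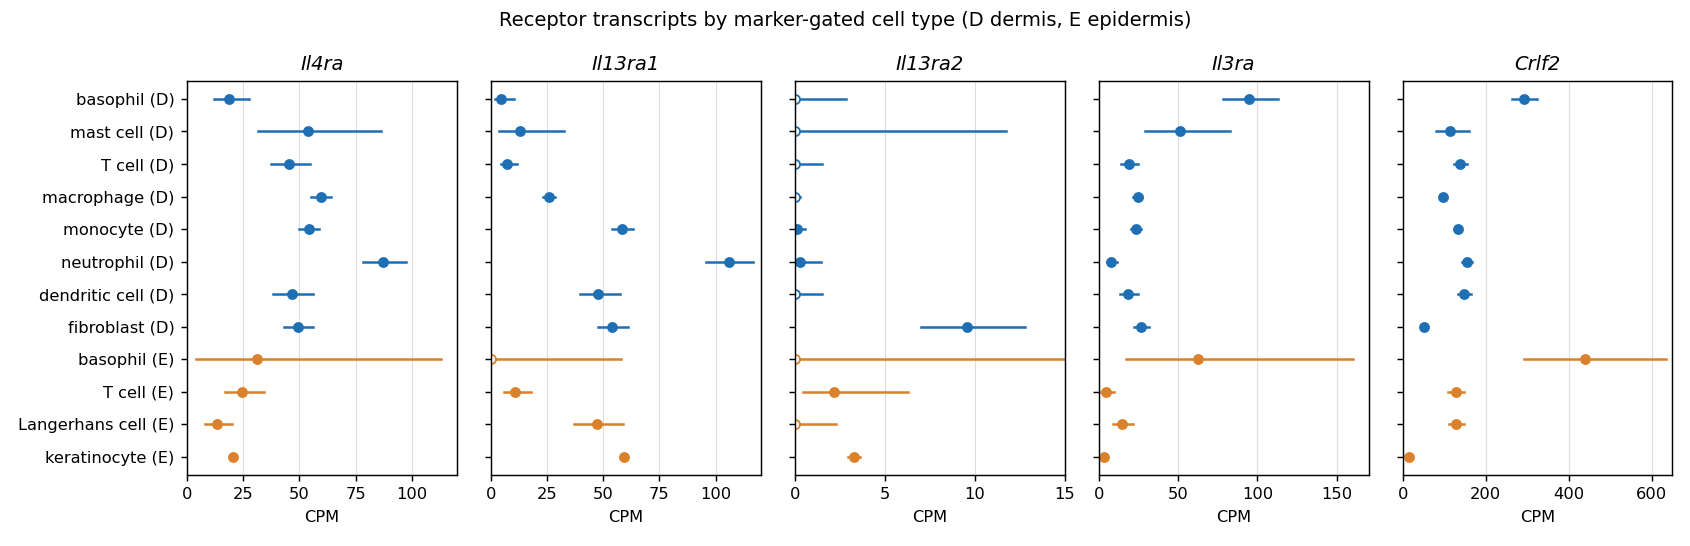
Level of the 5 receptor genes in each gated cell type of the dermis (D, blue) and epidermis (E, orange), in CPM; lines are exact 95% Poisson intervals and open points mark 0 UMIs. In the *Il13ra2* panel the interval of epidermal basophil-like cells is clipped at the edge of the axis and runs to 57.8 CPM. Neutrophil-like cells led *Il4ra* and *Il13ra1* among the dermal types, basophil-like cells led *Il3ra* and *Crlf2*, and *Il13ra2* was found in fibroblast-like and keratinocyte-like cells.

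*Il4ra*, the chain common to both IL-4 receptors, was broad. Among the gated dermal types of at least 50 cells, neutrophil-like cells had the highest level at 87.4 CPM (78.2-97.3). It was 1.47-fold (1.29-1.67) above macrophage-like cells at 59.6 CPM (55.3-64.0). The macrophage gate pools clusters that differed. The cluster led by *Cd209f*, *Cbr2* and *Marco* had 135 UMIs in 74 cells (median 13385 UMIs). The neutrophil cluster had 361 in 752 cells (median 3839.5 UMIs). The order is thus for whole gates only. Monocyte-like (54.2 CPM), mast-cell-like (54.1), fibroblast-like (49.4), dendritic-like (46.6) and dermal T-cell-like cells (45.6) formed a group with overlapping intervals. Of the 17 *Il4ra* UMIs of the mast gate, 11 lay in the 12 cells outside the mast cluster, and the cells inside it had 36.5 CPM. Regulatory T-cell-like cells had 62.2 CPM and *Trdc*+ cells 29.2 CPM, a *Trdc*+ over regulatory ratio of 0.470 (0.286-0.761). Basophil-like cells were low at 18.6 CPM (11.9-27.6), and macrophage-like cells exceeded them 3.21-fold (2.14-5.04). The epidermal types stood at 24.4 CPM in T-cell-like, 20.5 in keratinocyte-like and 13.2 in Langerhans-like cells. The T-cell level was 1.87-fold (1.27-2.84) higher in the dermal library, and within *Trdc*+ cells the ratio was 1.28 (0.735-2.23).

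*Il13ra1*, the second chain of the type II receptor, was also highest in neutrophil-like cells, at 106 CPM (95.7-117). Keratinocyte-like cells had 59.0 CPM (57.5-60.6) with a UMI in 75.7% of cells at a median depth of 31558 UMIs, and monocyte-like (58.4 CPM), fibroblast-like (53.9), dendritic-like (47.8) and Langerhans-like cells (47.0) were close to them. Macrophage-like cells, with 25.7 CPM, were below neutrophil-like cells by a ratio of 4.11 (3.54-4.78 for neutrophil over macrophage). Lymphocytes and basophils had little: 10.7 CPM in epidermal and 7.33 CPM in dermal T-cell-like cells, and 4.64 CPM (6 UMIs) in dermal basophil-like cells. The 8 keratinocyte markers summed to 7290 CPM in epidermal T-cell-like and 6548 CPM in Langerhans-like cells, against 27979 CPM in keratinocyte-like cells. The part of keratinocyte reads in the receptor levels of epidermal leukocytes was not tested. Fibroblast-like cells with *Coch*, a gene of a fibroblast subset in this study that was looked up after the values were seen, had 60.5 CPM against 44.8 CPM without it, a ratio of 1.35 (1.04-1.77).

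*Il13ra2*, the decoy chain, lay mostly in fibroblast-like and keratinocyte-like cells. Of 47 dermal UMIs, 45 lay in fibroblast-like cells (9.58 CPM, 6.99-12.8), where 7.38% of cells carried one, and 1 each lay in a neutrophil-like and a monocyte-like cell. None of 1242 macrophage-like cells had a UMI, which allows a share of up to 0.242% of cells with a UMI. Of 334 epidermal UMIs, 330 lay in keratinocyte-like cells (3.27 CPM, 2.93-3.65), which held 96.0% of all epidermal UMIs. Epidermal T-cell-like cells had 2.15 CPM (3 UMIs, 0.443-6.28). Upper follicle keratinocyte-like cells had 4.63 CPM against 2.54 CPM in basal ones, a ratio of 1.82 (1.43-2.32). That order rested on 1 unnamed cluster of 317 cells, led by *Dcn*, *Mgp* and *Myoc*, which held 122 of the 334 UMIs (12.4 CPM), 116 of them in 274 upper follicle cells. Without it, upper follicle cells had 1.80 CPM and basal cells 2.47 CPM, a ratio of 0.730 (0.511-1.03), and keratinocyte-like cells 2.29 CPM. Across the libraries fibroblast-like cells stood 2.93-fold (2.10-4.01) above keratinocyte-like cells. *Il13ra2* was the only one of the 7 genes compared to be at least 2-fold higher in fibroblast-like cells (45 UMIs against 2, a ratio of 171 with a 95% interval of 44.7-1455), where 19.6% of all genes were, and in keratinocyte-like cells (330 UMIs against 4, a ratio of 3.44 with a 95% interval of 1.33-12.7), where 15.3% of 13467 genes were.

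Keratinocyte layers differed in their chains. *Il4ra* was 19.7 CPM in basal, 13.6 CPM in suprabasal and 24.9 CPM in upper follicle keratinocyte-like cells, with an upper follicle over basal ratio of 1.26 (1.15-1.39) and a suprabasal over basal ratio of 0.689. *Il13ra1* ran 64.3, 56.3 and 53.1 CPM in the same order. *Il3ra* (-1.99) and *Crlf2* (-2.96) were among the 4 genes at least 2-fold lower in keratinocyte-like cells than in other epidermal cells, together with *Il4* and *Il13*, where 23.7% of all genes were lower.

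At full depth the 2 chains of the type II receptor were detected in 1 cell most often in structural and myeloid cells. *Il4ra* and *Il13ra1* were detected together in 32.9% (31.3-34.6) of keratinocyte-like, 20.2% of dendritic-like, 18.6% (14.7-22.9) of fibroblast-like, 15.3% of neutrophil-like, 15.2% of monocyte-like and 8.94% of macrophage-like cells. In T-cell-like cells of the dermis the share was 1.99%, and 1 basophil-like cell (0.379%) had both. These shares follow depth, with medians of 31558 UMIs in keratinocyte-like, 11248 in fibroblast-like and 3871 in neutrophil-like cells. After thinning to 1000 UMIs they were 0.223% in keratinocyte-like and 0.552% in fibroblast-like cells, the reverse of their order at full depth. An order of all types at equal depth is not given here. The products of the separate shares were 29.4% and 14.1%. The chains of the type I receptor, *Il4ra* and *Il2rg*, were found together in 29.8% of dendritic-like, 26.7% of dermal T-cell-like, 13.6% of macrophage-like, 3.41% of basophil-like and 2.49% of keratinocyte-like cells. Depth differed here too, with medians of 14309.5 UMIs in dendritic-like, 7824 in dermal T-cell-like and 8236.5 in macrophage-like cells.

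The wider pathway was read through 4 lists of genes, of which several are also gate markers (*Fcer1a*, *Ms4a2* and *Gata2* for basophils, *Gata3*, *Il1rl1*, *Il7r*, *Ptgdr2*, *Il17rb* and *Areg* for ILC2, *Ccr3* for eosinophils and *Cd209a* for dendritic cells). Of 13 receptor genes compared in basophil-like cells, 7 were at least 2-fold higher than in the other dermal cells and 3 lower, where 9.94% and 32.1% of all genes were, with a median log2 ratio of 1.52 against -0.51 for all genes. Without the 2 gate markers the count was 5 of 11 and the median 0.63. They included *Ms4a2* and *Fcer1a*, chains of the IgE receptor (log2 ratios 6.88 and 5.74, both gate markers), *Csf2rb2* (3.53), *Ccr3* (3.37), *Il1rl1*, the receptor for IL-33 (3.24, 54.2 against 5.75 CPM), and *Csf2rb* (2.57). The lowest was *Il9r*, with 0 UMIs. Of 6 other type 2 cytokines and alarmins, *Il6* (6.21, 2353 against 31.7 CPM) and *Csf2* (2.72) were higher and *Il33* (-2.63) and *Tnf* (-1.10) lower. Of 21 signalling and transcription genes 8 were higher, from *Jak1* (1.05) to the lineage factors *Gata1* (5.53) and *Gata2* (6.71, a gate marker), and 4 were lower, of which *Maf* (-2.22) was the lowest. Without *Gata2* the higher count was 7 of 20.

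Genes known to be raised by IL-4 or IL-13 were divided among the cell types, with more of them lower than higher in each of the 6 types compared. In basophil-like cells 3 of 15 were at least 2-fold higher (all genes 9.94%), namely *Alox15*, a lipoxygenase (7.55, 218 against 1.15 CPM), *Pdcd1lg2* (2.85) and the STAT5 feedback gene *Cish* (1.36), and 12 were lower (all genes 32.1%), with *Arg1* at 0 UMIs and a median log2 ratio of -2.42. In mast-cell-like cells 4 were higher and 6 lower, where 19.8% and 13.5% of all genes were, but 3 of the 4 rested on cells outside the mast cluster. The chemokine *Ccl17* had 1383 CPM against 41.6 CPM in the other dermal cells, and 433 of its 435 UMIs lay in those 12 cells, 432 of them in 1 cell of a cluster led by *Cd209a*, *Klrd1*, *H2-DMb2*, *Mgl2* and *Ccl17*. All 21 UMIs of *Alox15* and all 31 of *Mgl2* lay in the same 12 cells. The lectin gene *Clec10a* (2.71) was found in the mast cluster itself, with 109 of 117 UMIs in 52 cells there (664 CPM). In macrophage-like cells *Mrc1* (322 against 51.1 CPM), *Arg1* (36.9 against 7.52 CPM) and *Ccl24* (28.1 against 6.59 CPM) were higher, as 4.11% of all genes were, and 9 were lower, as 21.7% were, of which *Alox15* (-5.00) was the lowest. None of the 8 genes was at least 2-fold higher in macrophage-like cells, and *Il4*, *Il13*, *Il13ra1* (-1.05) and *Il13ra2* (0 UMIs, against 1.68 CPM in the rest) were lower. In fibroblast-like cells the eosinophil chemokine gene *Ccl11* (12.4 against 0.252 CPM) and the matrix gene *Postn* (517 against 13.7 CPM) were higher and 11 of 15 lower, where 19.6% and 14.5% of all genes were. In keratinocyte-like cells *Postn* (64.4 against 16.2 CPM) was higher and 12 of 14 were lower, where 15.3% and 23.7% of all genes were. The comparisons hold cell types against each other within inflamed skin and carry no untreated level.

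In the dermal T-cell-like cells *Cish* (2.16) and *Pdcd1lg2* (1.02) of that list were higher and 13 lower, where 13.2% and 24.6% of all genes were, of which *Chil3* (-3.80) was the lowest. Their other lists were led by *Areg* (4.36), *Csf2* (4.22), *Ccr4* (6.03, 11.0 against 0.158 CPM), *Il9r* (3.49), *Il2rg* (2.06) and *Gata3* (3.90, 79.0 against 5.30 CPM). The mast-cell-like cells shared with basophil-like cells the higher *Fcer1a* (5.51), *Ms4a2* (4.16) and *Csf2rb2* (2.48), and their *Il1rl1* reached 216 against 5.66 CPM (5.26). Their *Csf2* had 21 UMIs, of which 1 lay in the mast cluster.

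Of the alarmins that call on type 2 cells, *Il33* in both libraries and *Tslp* in the epidermis were higher in structural cells. *Il33* was 49.0 CPM in fibroblast-like cells against 1.46 CPM in the other dermal cells (5.06) and 25.8 CPM in keratinocyte-like cells against 8.32 CPM in the other epidermal cells (1.61). *Tslp*, the ligand of the *Crlf2* chain, was 38.9 CPM in keratinocyte-like cells against 8.80 CPM (2.12). It was low in the dermis, with 4.17 CPM in macrophage-like cells against 1.33 CPM (1.65). In fibroblast-like cells *Tslp* was within 2-fold of the other dermal cells. *Osmr*, the receptor chain shared by oncostatin M and IL-31, was 49.4 CPM in fibroblast-like cells against 1.96 CPM.

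The genes whose levels ran most like those of each gene were found by Pearson's r of log2(CPM + 1) over 12 cell types of both libraries among 13740 genes. The points share 2 libraries and a few types dominate them, so r is a description. *Il4* was followed most closely by *Ms4a2* (0.996) and *Gata2* (0.989), which are basophil gate markers, and by the protease gene *Ctsg* (0.989). *Il13* was followed by *Sytl3* (0.962), *Prkcq* (0.959) and the T-cell gate marker *Lat* (0.941), *Il3ra* by *Slc41a3* (0.927), *Tnnt1* (0.911) and *Runx1* (0.893), and *Crlf2* by *Cd53* (0.970), *Rin3* (0.959) and *Havcr2* (0.948). For *Il4ra* they were *Gadd45b* (0.910), *A530076I17Rik* (0.892) and *Dhx38* (0.887), for *Il13ra1* *Bcl6* (0.925), *Sipa1l3* (0.916) and *Cib2* (0.913), and for *Il13ra2* *Ripor3* (0.993), *Atp6v0a4* (0.987) and *Fzd3* (0.986). *Il5* had fewer than 50 UMIs and was left out.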

How the data were processed

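Live cells of the dermis and the epidermis were run as 1 library each on the 10x 3′ platform. The authors deposited matrices of UMI counts per gene and cell. The submitters' processing notes name CASAVA, Cell Ranger and mm10, and the matrix header names Cell Ranger 3.0.2. The deposited totals were 41258087 UMIs in 5376 dermal cells and 108768396 UMIs in 5258 epidermal cells, of which 4747 and 4173 cells were kept (at least 200 genes, at most 10% mitochondrial UMIs).

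Each cell was assigned to the type with the highest standardised mean marker level among those types of which it had the minimum number of markers (from 2 to 4 of lists of 4 to 8 genes). Names are therefore "-like". Doublets were not removed in the main analysis, and 180 dermal and 139 epidermal cells with the highest doublet scores were removed in an alternative. Counts were summed over the cells of a type. Poisson (CPM), Clopper-Pearson (shares) and conditional binomial (ratios) 95% intervals were exact and cover counting error only. The ratios of a type over the rest were tried on simulated counts with known fold changes, and the intervals were not. A count of 0 was given the limit that 3 counts allow. Ratios of a type over the rest used genes with at least 20 UMIs in that library, a 2-fold limit and 0.5 UMI added to each count. Shares were also taken after each cell was thinned to 1000 UMIs. Levels were not compared between genes, since 3′ counts carry no length scale.

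The text names all 8 genes in types of at least 50 cells and in basophil-, mast- and T-cell-like cells, the genes of 4 pathway lists and the 3 genes most like each. The genes and lists were chosen with earlier results of these data known, and the minimum numbers of markers were set after marker counts were seen. Alternatives changed the cell filter, gates, clusters, doublets, thinning, weighting of cells and the richest cell. Python 3.11.15, numpy 2.4.6, scipy 1.17.1, pandas 2.3.3, scanpy 1.11.5 and matplotlib 3.10.9 were used.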

Additional observations from a re-analysis of the deposited data

Results flagged for a closer look

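Transcripts of the type 2 genes were also present in the cells that the filter left out of every comparison, 629 dermal cells with 865221 UMIs and 1085 epidermal cells with 3735033 UMIs, at more than the 3 counts that a count of 0 allows. In the dermal cells left out there were 10 UMIs of *Il4* in 3 cells, of which 8 lay in 1 cell that passed the basophil gate, and 9 UMIs of *Il13* in 4 cells. The receptors had 93 UMIs of *Il4ra* (107 CPM), 78 of *Crlf2* (90.2 CPM), 31 of *Il13ra1* and 31 of *Il3ra*. In the epidermal cells left out there were 284 UMIs of *Il13ra1* (76.0 CPM), 163 of *Il4ra* (43.6 CPM), 75 of *Crlf2* (20.1 CPM), 12 of *Il3ra* and 9 of *Il13ra2*.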

How the results depend on the processing

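No paired analysis was possible because the dermis and the epidermis were each sequenced as 1 library. Of 127 alternatives for the main values, 100 left the value inside its main 95% interval, 25 moved it outside, and 2 turned a direction. Of 715 for other values, 622 stayed within, 91 moved and 2 turned a direction, counting 20 that were chosen after seeing the data. Counts of genes past a fold, which are among the 715, have no interval. They were judged by a limit on the relative change of the count instead. Without the richest cell, *Il4* in basophil-like cells fell from 376 to 331 CPM, *Il13* in basophil-like cells from 141 to 70.0 CPM (share of dermal *Il13* from 50.4% to 33.5%, T-cell share from 30.2% to 40.5%), in dermal T-cell-like cells from 44.4 to 17.7 CPM and in epidermal ones from 66.6 to 36.8 CPM (share from 81.6% to 70.8%). The dermal over epidermal *Il13* ratio of T-cell-like cells went from 0.666 to 0.265 without the richest dermal and to 1.21 without the richest epidermal cell. Under the mean of single-cell CPM, *Il4* in mast-cell-like cells was 403 CPM, the basophil over mast ratio 0.951, *Il13* in T-cell-like cells 17.3 (dermis) and 33.4 CPM (epidermis), and *Il4ra* in macrophage-like cells 64.4 CPM. With stricter gates *Il4* in mast-cell-like cells was 286 CPM and the ratio 1.33, with clusters 364 CPM and 1.09. Looser gates gave a basophil share of dermal *Il4* of 76.1%, doublet removal 414 CPM of *Il4* in basophil-like cells, and the stricter filter a T-cell share of epidermal *Il13* of 88.6%. Shares of cells follow depth: with thinning or at least 2 UMIs, *Il4* was found in 24.0% or 25.4% of basophil-like and 22.4% or 9.35% of mast-cell-like cells, and thinning left both type II chains in 0.552% of fibroblast-like and 0.223% of keratinocyte-like cells. Of those chosen later, the mean of single-cell CPM took the *Il3ra* basophil over mast ratio from 1.86 to 0.924, and leaving out 1 epidermal cluster took the *Il13ra2* upper follicle over basal ratio from 1.82 to 0.730. Mast-cell-like cells were shallow, which limits what their zeros show.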
